A study of Mus musculus with 8 samples.

Results

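Imprinted growth genes are genes expressed mainly from the copy inherited from a single parent, and 10 of them were examined in BAT, the brown fat depot in which mice make heat. The members were fixed by name (Mest, Nnat, Plagl1, Sgce, Peg3 and Igf2, expressed from the paternal copy, and H19, Meg3, Grb10 and Igf2r, expressed from the maternal copy in most mouse tissues). All 10 were found, by Ensembl identifier and the GENCODE M21 annotation, among the 31053 genes of the count table. BAT was profiled by bulk RNA-seq in 4 wild-type (WT) and 4 db/db mice, all 8 weeks old and labelled C57BL6/J. The db/db mice carry a mutation of the leptin receptor gene Lepr in every cell and become obese and diabetic, and the study's methods give them as male B6.BKS(D)-Leprdb/J mice from the Jackson Laboratory. For WT C57BL6/J males the methods name 2 different suppliers in different places, so whether the genotypes came from one source is not settled. Tissue was taken after a fast. Lepr had 0 counts in each of the 8 libraries, so it gave no check of the genotype labels. The labels call the cell type stromal vascular fraction and the tissue BAT. The mature brown adipocyte markers Ucp1 and Cidea were abundant in the libraries of both genotypes, at a mean of 2248 and 4356 CPM (counts scaled to library size) in WT, which goes against a fraction free of adipocytes.

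Imprinting is set by DNA methylation laid down in the egg or the sperm, and the marked copy then stays silent or active through development. Many imprinted genes are abundant in the embryo, shut down after birth, and set the growth of fetus, placenta, muscle and fat. Paternally expressed genes such as Igf2 and Mest tend to promote growth, and maternally expressed genes such as Igf2r, Grb10 and H19 tend to restrain it. RNA-seq counts per gene do not tell the parental copies apart, so the values below are the total output of both copies, and no allele was measured.

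The promoters of imprinted genes often lie in CpG-rich stretches that carry the parental methylation mark. The promoters of Mest and Nnat, the members with the largest differences between the genotypes, and of Peg3, which did not pass the test, are shown side by side, 5′ to 3′, with every CG dinucleotide in capitals. They span the 250 bases before to the 50 bases after the RefSeq transcription start on GRCm38.p6, at chr6:30737800-30738099 on the plus strand for Mest, chr2:157559828-157560127 on the plus strand for Nnat and chr7:6730370-6730669 on the minus strand for Peg3.
Mest: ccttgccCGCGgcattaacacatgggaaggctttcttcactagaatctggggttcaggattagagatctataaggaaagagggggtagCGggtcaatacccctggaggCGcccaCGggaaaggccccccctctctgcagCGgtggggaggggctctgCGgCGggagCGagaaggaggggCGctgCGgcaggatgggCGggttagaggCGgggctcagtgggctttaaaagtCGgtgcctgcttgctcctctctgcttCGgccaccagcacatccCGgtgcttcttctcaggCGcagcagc
Nnat: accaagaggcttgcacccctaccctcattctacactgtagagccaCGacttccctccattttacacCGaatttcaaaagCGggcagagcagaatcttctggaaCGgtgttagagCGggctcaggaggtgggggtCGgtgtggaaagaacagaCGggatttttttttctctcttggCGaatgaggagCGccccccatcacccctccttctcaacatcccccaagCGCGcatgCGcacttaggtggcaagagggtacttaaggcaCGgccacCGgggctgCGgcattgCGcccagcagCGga
Peg3: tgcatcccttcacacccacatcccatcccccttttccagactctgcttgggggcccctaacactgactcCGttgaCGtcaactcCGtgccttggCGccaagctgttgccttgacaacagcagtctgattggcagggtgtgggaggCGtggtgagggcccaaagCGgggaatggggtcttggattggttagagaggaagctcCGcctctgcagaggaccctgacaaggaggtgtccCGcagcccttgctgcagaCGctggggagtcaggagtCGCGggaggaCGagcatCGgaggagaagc

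The Mest and Nnat windows shown each held 17 CG dinucleotides and the Peg3 window held 13, against a median of 7 over all 32851 mouse promoter windows of that length, and 68.6% of these windows held fewer than these of Mest or Nnat. Mest has 3 RefSeq windows, and the one at chr6:30733256-30733555, of another transcription start, held 8. The richest window among the members was one of Grb10, with 45. A RefSeq window was at hand for 8 of the 10 members, and H19 and Sgce had no entry. Searched on both strands, the Sp1 box GGGCGG, which itself contains a CG, was present once in the Mest window shown and absent from the windows of Nnat and Peg3, and 35.7% of all windows hold it. The NRF1 core CGCATGCG, with CG at both ends, was present once in the Nnat window and in 1.87% of all windows. The motif GGGGCCCC, bound by the Plagl1 protein, was present once in the Peg3 window and in 1.08% of all windows. The YY1 core CCATNTT was found once in the Nnat window and in 16.1% of all windows, and the TATA box TATAAA was in none of the 3 windows shown and in 13.6% of all. These matches describe the letters and do not show binding.

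To investigate how the members differed between db/db and WT, counts were divided by the TMM-scaled library size (CPM) and tested by the quasi-likelihood test of edgeR over all 9264 genes with enough counts, with Benjamini-Hochberg adjusted p-values (adjusted p, threshold 0.05). Of the 10 members, 9 were tested, 6 were higher in db/db and 0 were lower. At an unadjusted p under 0.05, 7 were higher and 0 lower, and DESeq2 and limma-voom both called 6 higher and 0 lower. Mest, H19 and Grb10 needed their db/db libraries to pass the filter on low counts, so these counts describe the members and support no direction. Over all tested genes, 27.7% were called, 15.8% as higher and 11.9% as lower in db/db. In 7 members every db/db library lay above every WT library on the CPM scale (Grb10 only on that scale), which held for 15.3% of all tested genes, and in none did every db/db library lie below, which held for 12.7%. The median log2 fold change of the tested members was 1.17, against 0.01 over all genes tested. It includes Mest, H19 and Grb10, and the members were chosen with earlier results of these data known. The contrast with all genes is therefore a description only. The WT libraries held 2374079 to 2615009 counts and the db/db libraries 2382722 to 3240074, and 3 counts, taken as the limit of detection, corresponded to 0.902 to 1.33 CPM.

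**Figure D1:**
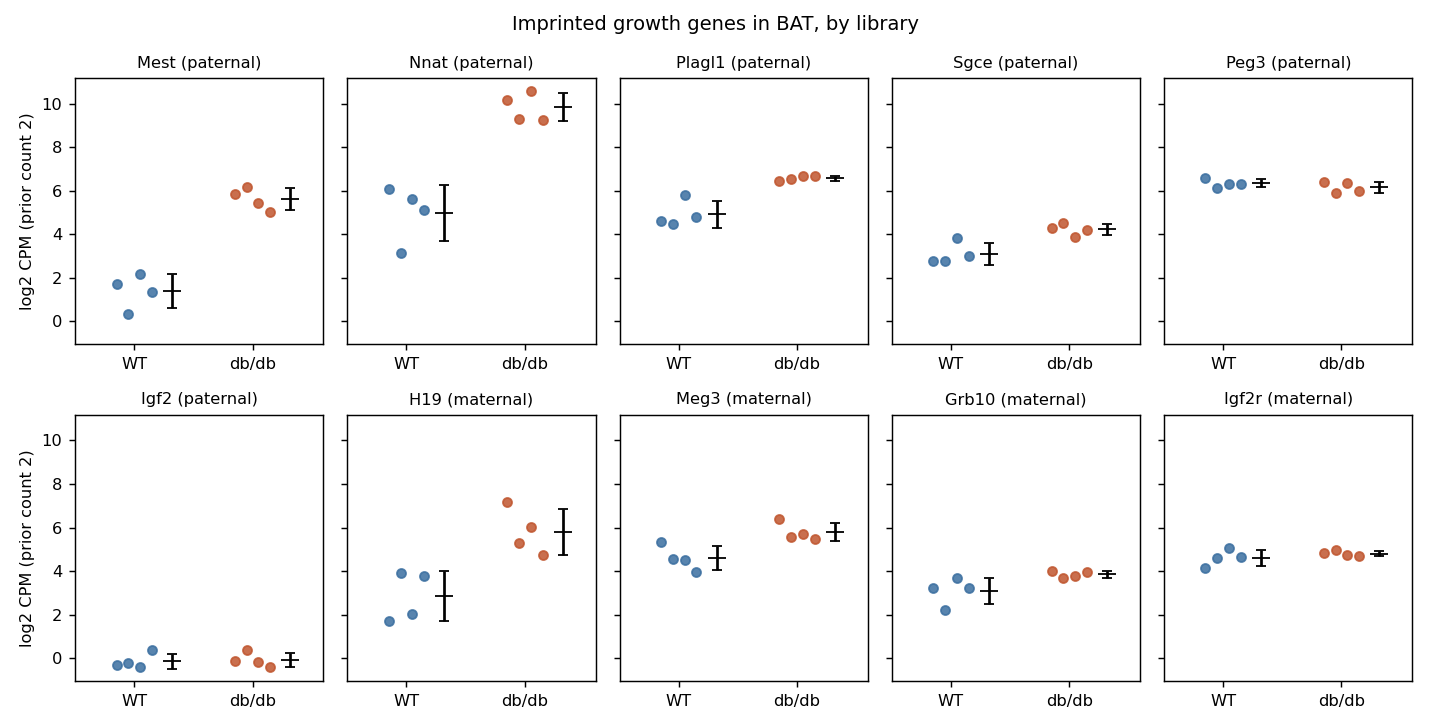
Each panel shows 1 member, with log2 CPM (prior count 2) of the 4 WT and 4 db/db libraries as points and the mean and SD beside them. The db/db points of Mest and Nnat lie above every WT point by the widest margin, while Peg3, Igf2r and, by a narrow margin, Grb10 overlap and Igf2 has at most 2 counts in any library.

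Among the paternally expressed members, 4 of 5 tested were higher in db/db (15.8% of all tested genes were), with a median log2 fold change of 1.57. With at least 10 counts in every sample, which leaves out Mest, 3 of 4 tested were higher, with a median of 1.41. Mest (chr6:30723547-30748465, plus strand) encodes an enzyme-like protein of the endoplasmic reticulum with a hydrolase fold and is known to rise in white fat that is enlarging. Mest was at 2.43, 0.422, 3.76 and 1.70 CPM in the WT libraries 1 to 4 and at 56.9, 71.3, 42.6 and 32.4 CPM in the db/db libraries 1 to 4. Every db/db library stood far above every WT library, and the WT values rested on only 6, 1, 10 and 4 counts. The mean rose from 2.08 ± 1.39 CPM (SD, n = 4) to 50.8 ± 17.0 CPM (SD, n = 4), a log2 fold change of 4.56 (SE 0.36, 95% interval 3.79 to 5.33) or 23.5-fold, with an adjusted p of 1.00e-07 by edgeR. It was rank 29 of 9264 genes ordered by log2 fold change. The 3′ end of Mest shares 912 exonic bases with Copg2 on the other strand, and since counting by strand is not stated, reads there could belong to either. Copg2 itself did not pass the test, with a log2 fold change of 0.09 (95% interval -0.34 to 0.51, adjusted p = 0.793).

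In a bulk sample, fewer cells of a type and less RNA per cell cannot be told apart, and marker genes of several cell types moved with the genotype. The 8 fibroblast and adipocyte progenitor markers summed to between 568.5 and 653.1 CPM in WT and between 994.7 and 2053 CPM in db/db, with 6 of 8 markers higher. The 8 macrophage markers summed to between 50.1 and 81.9 CPM in WT and between 280.1 and 534.9 CPM in db/db, with 7 of 8 higher. The 5 white adipocyte markers summed to between 1344 and 2100 CPM in WT and between 2946 and 3483 CPM in db/db, with 3 of 5 higher. The summed levels of the genotypes did not overlap in these 3 lists, nor in the lists below, where a few abundant genes can carry the sum. The 6 Schwann cell and nerve markers summed to between 99.6 and 176.8 CPM in WT and between 335.6 and 541.3 CPM in db/db, and 2 of the 3 that could be tested were higher. The 5 smooth muscle markers summed to between 56.0 and 72.6 CPM in WT and between 135.4 and 372.7 CPM in db/db, with 2 of 3 tested higher. That sum rested on Acta2 and Des, the second of which is also a skeletal muscle gene, while Myh11 did not pass (adjusted p = 0.737) and Tagln, untested, was at a mean of 2.38 CPM in WT and 1.23 CPM in db/db. The nerve sum rested mostly on S100b (mean 126.3 CPM in WT and 385 CPM in db/db). The 7 brown adipocyte markers went the other way, from between 8878 and 10550 CPM to between 3707 and 6752 CPM, with 5 of 5 tested lower, and the 6 endothelial markers fell in 2 of 6, from between 264.9 and 322.5 CPM to between 202.7 and 235.9 CPM. No marker of these lists was at 0 in all libraries. The part of these cell types in the members' differences was not tested.

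The 15 skeletal muscle markers were all higher in db/db, and they summed to between 453.2 and 1621 CPM in WT and between 2379 and 11830 CPM in db/db, highest in db/db library 1. The members were therefore also fitted with the muscle score of each library (the mean z-score of these 15 markers) as a covariate. That score alone separates the genotypes, so this fit takes up part of the genotype difference. Mest kept a log2 fold change of 4.39 in it (adjusted p = 1.96e-05).

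Nnat (chr2:157560078-157562522, plus strand) encodes neuronatin, a small membrane protein of the endoplasmic reticulum that affects calcium handling and is found in nerve, islet and fat cells. Nnat was at 66.0, 8.02, 49.2 and 34.0 CPM in the WT libraries and at 1164, 636.3, 1567 and 618.3 CPM in the db/db libraries. The lowest db/db value was far above the highest WT value, and WT library 2 was the lowest of all, as it was for Mest. The mean rose from 39.3 ± 24.6 CPM to 996.5 ± 457.1 CPM (SD, n = 4 each), a log2 fold change of 4.66 (SE 0.43, adjusted p = 4.57e-07 by edgeR) or 25.2-fold, and with the muscle covariate it was 4.41 (adjusted p = 0.000179). Nnat lies within the gene Blcap, on the other strand and with 0 shared exonic bases, and Blcap, which is not held to be imprinted in most tissues, rose by a smaller amount, from 88.2 ± 7.89 to 153 ± 31.3 CPM (log2 fold change 0.79, adjusted p = 0.000901).

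Plagl1 (chr10:13060504-13131694, plus strand) encodes a zinc finger transcription factor that slows the cell cycle and regulates other imprinted genes. Plagl1 was at 23.9, 21.1, 54.9 and 26.7 CPM in the WT libraries and at 86.3, 91.3, 101.1 and 100.4 CPM in the db/db libraries. The groups did not overlap, and WT library 3 stood above the other WT libraries. The log2 fold change was 1.57 (SE 0.23, adjusted p = 7.07e-05 by edgeR), and it was 1.78 with the muscle covariate (adjusted p = 0.00482).

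Sgce (chr6:4674350-4747207, minus strand) encodes epsilon-sarcoglycan, a membrane protein of the dystrophin-associated complex. Sgce was at 6.07, 5.91, 13.5 and 7.22 CPM in the WT libraries and at 18.95, 22.3, 13.7 and 17.9 CPM in the db/db libraries. The highest WT value, again of library 3, lay just under the lowest db/db value. The log2 fold change of Sgce was 1.15 (SE 0.29, adjusted p = 0.00667 by edgeR), and with the muscle covariate 1.26 (adjusted p = 0.152), which no longer passed. Its neighbour Peg10, a paternally expressed gene of retrotransposon origin that starts 99 bases away on the other strand, had too few counts for the edgeR test. Peg10 had 1, 0, 3 and 0 counts in WT and 26, 5, 6 and 7 counts in db/db, without overlap (exact two-sided permutation p = 0.0286, the smallest that 4 against 4 allows; DESeq2, which tested it, gave an adjusted p of 0.0152).

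Peg3 (chr7:6703892-6730431, minus strand) encodes a large zinc finger protein and is, with Mest, among the best known paternally expressed genes. Peg3 was at 95.1, 70.1, 80.0 and 79.0 CPM in the WT libraries and at 83.6, 58.2, 80.2 and 63.6 CPM in the db/db libraries. The ranges overlapped and the libraries of each genotype lay close together. The log2 fold change of Peg3 was -0.18 (95% interval -0.51 to 0.14, adjusted p = 0.413 by edgeR), so its interval excludes differences of the size seen for Mest, Nnat or Plagl1. Igf2 (chr7:142650766-142666816, minus strand), the fetal insulin-like growth factor, had 0, 0, 0 and 1 counts in WT and 1, 2, 0 and 0 counts in db/db. No library reached 3 counts, and a difference could not be assessed (exact two-sided permutation p = 0.771). Of the 5723 exonic bases of Igf2, 3596 are shared with Gm49394 on the same strand, which had 0 counts in all 8 libraries, and a counter that drops reads falling in more than one gene would leave out reads there, so the low counts do not show that Igf2 RNA was absent.

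Among the maternally expressed members, 2 of 4 were higher in db/db (15.8% of all tested genes were), with a median log2 fold change of 0.96. H19 and Grb10 passed the filter only through their db/db libraries. With at least 10 counts in every sample, 1 of 2 tested was higher, with a median of 0.73. H19 (chr7:142575529-142578143, minus strand) is a long noncoding RNA that is abundant in the fetus and stays on in adult skeletal muscle. H19 was at 2.43, 14.4, 3.38 and 12.7 CPM in the WT libraries and at 145, 38.8, 63.4 and 26.0 CPM in the db/db libraries. The groups did not overlap, and db/db library 1, highest in muscle markers, was the highest in H19. The log2 fold change of H19 was 3.08 (SE 0.51, adjusted p = 0.000225 by edgeR), or 8.44-fold, and it was 2.38 without db/db library 1 (adjusted p = 0.000193). With the muscle covariate the log2 fold change was 0.58 (adjusted p = 0.471).

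Acta1, the skeletal muscle actin, was at 109.7, 283.2, 134.5 and 395.2 CPM in the WT libraries and at 3977, 1063, 1788 and 813.2 CPM in the db/db libraries. In the db/db libraries H19 and Acta1 fell in the same order, and in WT the libraries 2 and 4 were high in both. Per 100 Acta1 counts there were 2.21, 5.07, 2.51 and 3.22 H19 counts in WT and 3.65, 3.65, 3.55 and 3.20 in db/db. The db/db ratios lay within the WT range, and the mean log2 ratio of H19 to Acta1 was higher in db/db by 0.18 (exact two-sided permutation p = 0.429, n = 4 each). This ratio depends on the marker, since Acta1 was chosen after its values were seen. Its log2 fold change (3.05) was close to that of H19 (3.08). The median of the 15 muscle markers was 2.46, from 1.32 for Myh4, whose genotypes overlapped, to 3.05 for Acta1 and Tnnc2. Ratios to the other markers were not tested.

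**Figure D2:**
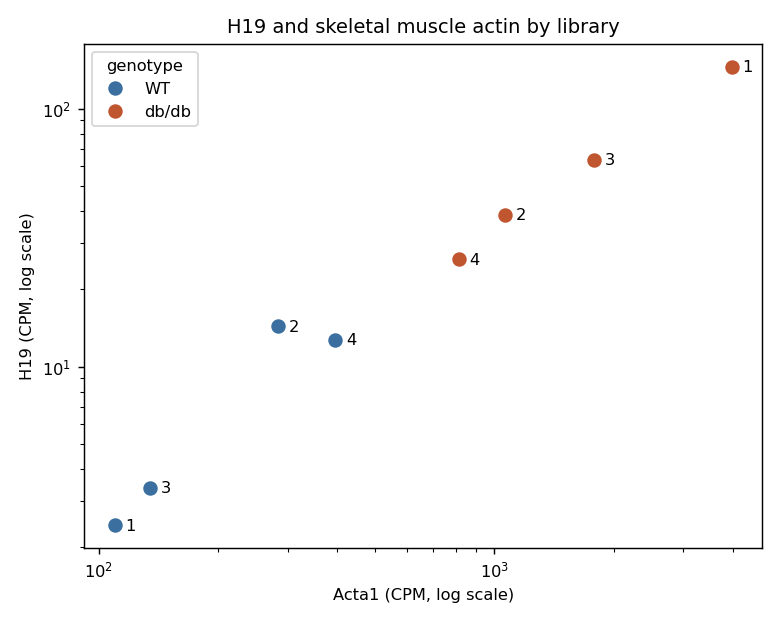
H19 is plotted against Acta1, both in CPM on log axes, with 1 point per library, coloured by genotype and numbered by replicate. From WT library 1 (H19 at 2.43 CPM) to db/db library 1 (145 CPM) H19 and Acta1 are high or low in largely the same libraries, with H19 at 2.21 to 5.07 counts per 100 Acta1 counts. Most other muscle markers rose less than Acta1, down to a log2 fold change of 1.32 for Myh4, and the ratio depends on the marker.

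Meg3 (chr12:109541001-109571726, plus strand) is a long noncoding RNA of the Dlk1 imprinted domain. Meg3 was at 40.1, 22.8, 22.2 and 14.9 CPM in the WT libraries and at 83.3, 47.4, 50.5 and 43.9 CPM in the db/db libraries. The groups were separate, and db/db library 1 stood above the other 3 db/db libraries. The log2 fold change of Meg3 was 1.18 (SE 0.26, adjusted p = 0.00258 by edgeR), and 0.98 with the muscle covariate (adjusted p = 0.240). Meg3 followed the order of Acta1 in the db/db libraries but not in WT, where Meg3 was highest in library 1, the lowest in Acta1, and lowest in library 4, the highest in Acta1. Dlk1, the paternally expressed inhibitor of fat cell differentiation in that domain, did not pass the test (log2 fold change -0.07, 95% interval -1.14 to 1.01, adjusted p = 0.940).

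Grb10 (chr11:11930508-12038683, minus strand) encodes an adaptor that binds the insulin and IGF1 receptors and restrains their signal. Grb10 was at 8.50, 3.80, 12.0 and 8.49 CPM in the WT libraries and at 15.3, 12.1, 12.9 and 14.9 CPM in the db/db libraries. On the CPM scale WT library 3 lay just under the lowest db/db library, and on the log2 CPM scale with a prior count of 2 it lay just above it (3.68 against 3.67), so the separation depends on the scale. The log2 fold change of Grb10, 0.74 (SE 0.30), did not pass the test (adjusted p = 0.0773 by edgeR), and without WT library 3 it was 0.97 (adjusted p = 0.0357). Igf2r (chr17:12682406-12769664, minus strand) encodes the receptor that clears Igf2 and sorts lysosomal enzymes. Igf2r was at 16.6, 23.2, 32.3 and 23.8 CPM in the WT libraries and at 27.4, 30.5, 25.7 and 24.9 CPM in the db/db libraries, with overlap. Its log2 fold change was 0.18 (95% interval -0.26 to 0.61, adjusted p = 0.566). The paternal antisense RNA Airn, which overlaps Igf2r and silences it on that copy, had a log2 fold change of -0.28 (adjusted p = 0.550), and it shares 0 exonic bases with Igf2r.

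Mest is known to vary between mice together with Sfrp5, Bmp3 and Nkd1 in white fat that expands. All 3 were higher in db/db BAT, but they passed the filter on low counts only through the db/db libraries, so a tested gene of this kind had to be higher there and the count of 3 is a description. Sfrp5, a secreted Wnt inhibitor, was at 2.83, 1.27, 0 and 4.25 CPM in the WT libraries and at 59.6, 43.3, 117.9 and 23.1 CPM in the db/db libraries (log2 fold change 4.86, adjusted p = 5.25e-06 by edgeR). Bmp3, a BMP family ligand, was at 1.62, 0.844, 1.88 and 0.425 CPM in the WT libraries and at 25.0, 23.5, 34.6 and 21.6 CPM in the db/db libraries (log2 fold change 4.37, adjusted p = 1.30e-07). Nkd1, an inhibitor of Wnt signalling, had 0, 0, 2 and 0 counts in WT and 35, 48, 23 and 22 counts in db/db (adjusted p = 7.19e-06). None of the db/db libraries overlapped WT in these genes, and among the db/db libraries Sfrp5 and Bmp3 were highest in library 3, and Nkd1, like Mest, in library 2. With the muscle covariate the log2 fold change of Sfrp5 was 3.52 (adjusted p = 0.00535 by edgeR).

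**Figure D3:**
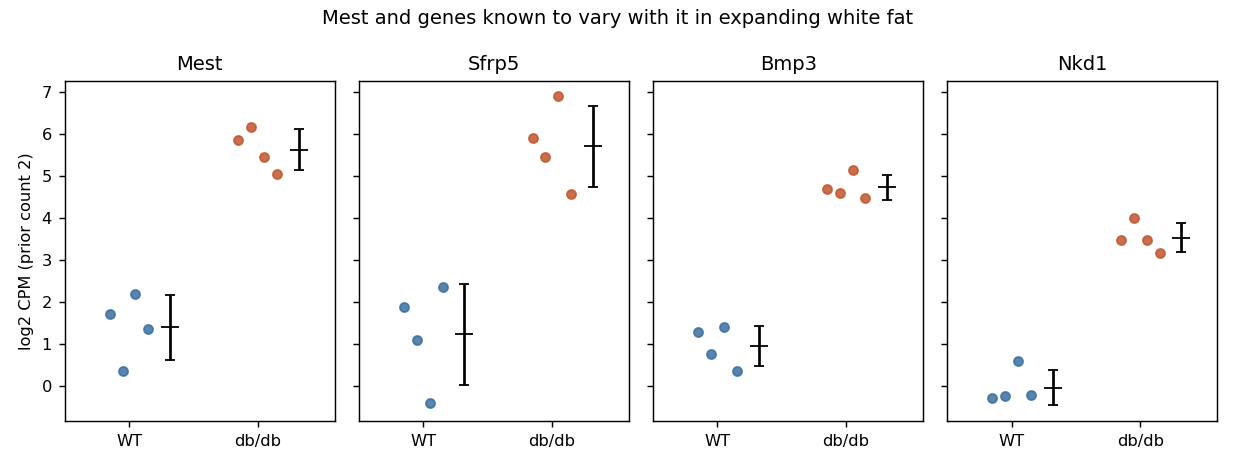
Log2 CPM (prior count 2) of Mest, Sfrp5, Bmp3 and Nkd1 is shown for the 4 WT and 4 db/db libraries, with the mean and SD beside the points. In all 4 genes the db/db points lie above the WT points, by a fitted log2 fold change of 4.56 for Mest, 4.86 for Sfrp5 and 4.37 for Bmp3.

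To set the members in a wider frame, 26 further paternally and 26 further maternally expressed mouse genes were listed, some of them imprinted only in certain tissues. Of the further paternal genes 9 could be tested, and 1 was higher and 1 lower in db/db, 22.2% in all against the background of 27.7%, with a median log2 fold change of -0.28. With at least 10 counts required in every sample, 3 were higher and 1 lower of 8 tested, with 2018 of 7333 genes called in all, so the share depends on the filter. Ndn, which encodes necdin, a protein that restrains cell growth and fat cell formation, was the higher one, from 24.7, 26.6, 15.4 and 24.6 CPM to 64.1, 69.0, 66.5 and 80.0 CPM (log2 fold change 1.62, adjusted p = 4.16e-06 by edgeR). Zrsr1, a relative of a splicing factor subunit, was the lower one (log2 fold change -0.77, adjusted p = 0.00113), and it shares 412 exonic bases with Commd1. Snrpn, a spliceosomal protein gene (log2 fold change 0.51, adjusted p = 0.0664), and the noncoding RNA Kcnq1ot1 (-0.43, adjusted p = 0.0982) did not pass. Snrpn passed with at least 10 counts in every sample (adjusted p = 0.0453 by edgeR) and without WT library 1 (0.0376), and Kcnq1ot1 passed without db/db library 1 (0.037).

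Of the further maternal genes 12 could be tested, and 2 were higher and 2 lower, 33.3% in all, with a median log2 fold change of 0.29. Pon2 and Pon3, neighbouring paraoxonase genes, went opposite ways. Pon2 was higher (log2 fold change 1.01, adjusted p = 0.000199 by edgeR) and Pon3 lower (-0.76, adjusted p = 0.00124). Slc22a3, a transporter of organic cations, was higher (0.48, adjusted p = 0.0472), and the ubiquitin ligase gene Ube3a was lower (-0.36, adjusted p = 0.0426), both close to the threshold and kept in 3 and 7 of 18 alternative analyses. The tetraspanin gene Cd81 (0.32, adjusted p = 0.0513), the histone chaperone gene Nap1l4 (-0.18, adjusted p = 0.342) and Trappc9 (0.25, adjusted p = 0.375) did not pass, though Cd81 passed in 4 of 18 alternative analyses, DESeq2 (adjusted p = 0.0393) and limma-voom (0.0413) among them. With the muscle covariate, Zrsr1 (log2 fold change -0.57, adjusted p = 0.283), Pon2 (0.93, adjusted p = 0.077) and Pon3 (-0.58, adjusted p = 0.236) kept their direction but did not pass. Like the paternal Peg10, the maternal genes Tspan32, Atp10a and Mirg were too low for the edgeR test. In each, every db/db library lay above every WT library (exact two-sided permutation p = 0.0286). By DESeq2 their adjusted p was 0.0349, 0.0603 and 0.244. Counted with the members, the paternal list had 5 genes higher and 1 lower of 14 tested (42.9% called), and the maternal list 4 higher and 2 lower of 16 (37.5%). Of all tested genes 27.7% were called, 15.8% as higher and 11.9% as lower. Both lists hold the members, which were chosen with earlier results known. The medians were 0.22 and 0.34, and the difference between the lists was not tested.

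**Figure D4:**
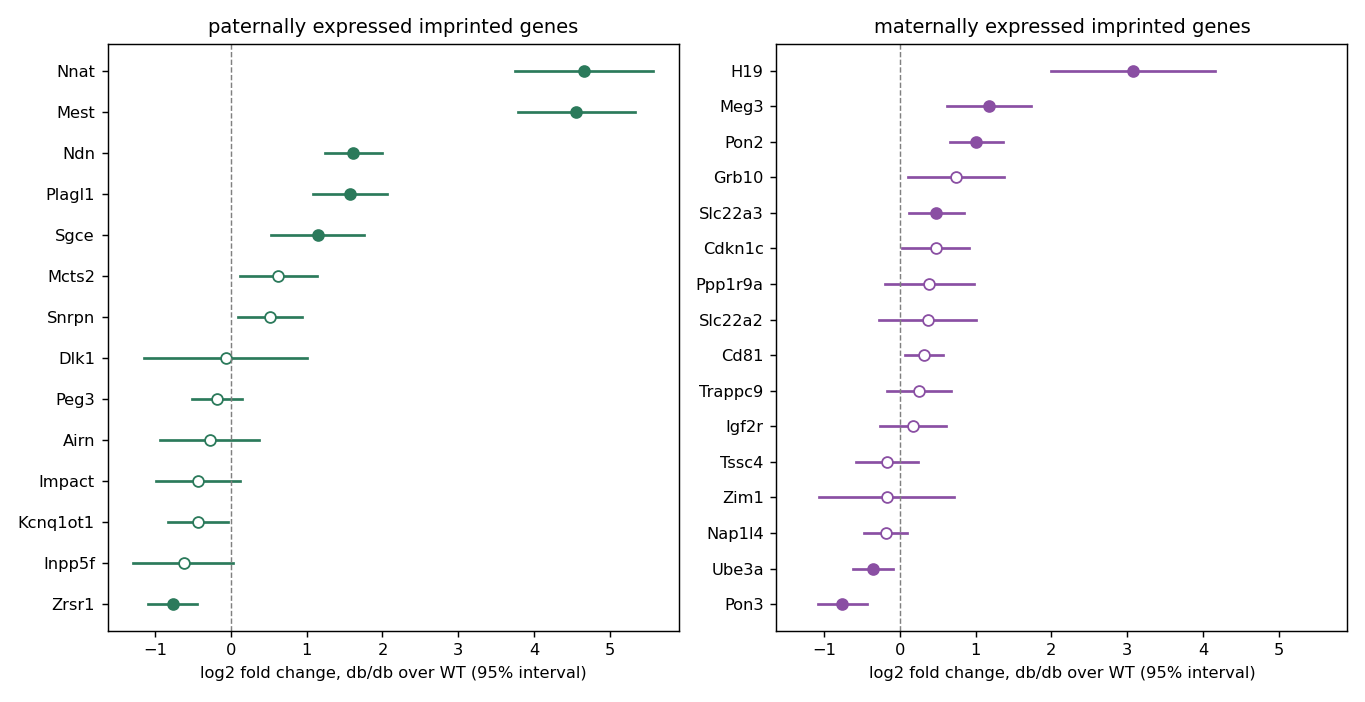
Log2 fold changes (db/db over WT) with 95% intervals are shown for the tested paternally expressed genes on the left and the tested maternally expressed genes on the right, filled where the edgeR adjusted p was under 0.05. Nnat (4.66), Mest (4.56) and H19 (3.08) lie far to the right of the other genes, which spread on both sides of 0.

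Imprinted genes lie in clusters, and listed genes less than 2 megabases apart were grouped by position alone. The distal chromosome 7 group, which joins the H19 and Kcnq1ot1 regions, had 1 of 6 tested genes called, H19, and in the chromosome 12 group Meg3 was called and Dlk1 was not. On proximal chromosome 6, Sgce and Pon2 were higher, Pon3 was lower and Ppp1r9a was not called. The Igf2r group on chromosome 17 had 1 of 4 tested genes called, Slc22a3. With 27.7% of all tested genes called, these counts are too small to set a group apart.

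Of 14 genes that set or keep DNA methylation and imprints, 7 could be tested, 1 was higher and 0 were lower by edgeR (14.3% called, against 27.7% of all genes tested), with 1 higher and 1 lower at an unadjusted p under 0.05 (DESeq2 and limma-voom each called 1 higher and 0 lower). The methyltransferase gene Dnmt3a was the higher one, at 18.2, 13.9, 12.4 and 10.6 CPM in the WT libraries and 29.5, 25.1, 16.0 and 22.7 CPM in the db/db libraries (log2 fold change 0.77, adjusted p = 0.0232), with overlap. Its call was lost without WT library 2, 3 or 4 and without db/db library 1 or 2, at log2 fold changes of 0.63 to 0.76, and with the muscle covariate, at 0.82 (adjusted p = 0.304). The insulator protein gene Ctcf (-0.32, adjusted p = 0.158), the corepressor gene Trim28 (-0.40, adjusted p = 0.127) and the zinc finger gene Zfp445 (-0.40, adjusted p = 0.157) did not pass, though Trim28 was called as lower without WT library 3 (-0.56, adjusted p = 0.0306). Dnmt1, too low for the main edgeR test, had 7, 6, 7 and 5 counts in WT and 29, 15, 15 and 8 in db/db, without overlap. Its exact two-sided permutation p was 0.0286 and its DESeq2 adjusted p was 0.121. It passed in 1 of the 7 alternative analyses that tested it.

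The genes most like Mest in their deviations from the genotype means over the 8 libraries were Nmi (Pearson r = 0.974), Hcar2 (0.972), H1f0 (0.972), Dcaf5 (0.962) and Nln (0.961), as a description only. The libraries share depth and tissue makeup, and the log2 fold changes of these 5 genes, from -0.22 for Hcar2 to 0.84 for Nmi, were far smaller than that of Mest.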

How the data were processed

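BAT of 4 WT and 4 db/db mice was profiled with single-end mRNA libraries. The study's methods name bbduk, STAR and HTSeq-count on mm10, while the submitters' processing notes name Trimmomatic, HISAT2 and DESeq2. The authors deposited raw counts per Ensembl gene, which were used here, and a normalized log2 table, which was not. Strand use and collapse of molecular identifiers are not given in the sources used here, so PCR copies may be counted. Symbols came from GENCODE M21 (31011 of 31053 genes matched), and Peg13, Zfp264 and Rian of the wider lists were not matched.

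Genes were filtered by filterByExpr (minimum count 10, minimum total 15), which left 9264, and scaled by TMM. CPM are counts over the filtered total times the TMM factor. Genotype was the only term in the edgeR 4.0.16 fit (R 4.3.3, quasi-likelihood test), with Benjamini-Hochberg adjustment at 0.05, and SEs were derived from the F statistic. DESeq2 1.42.0, limma-voom (limma 3.58.1), other scalings and filters, a replicate block, a skeletal muscle covariate and leaving out each library were alternatives. Untested genes got an exact two-sided permutation test on the log2 CPM scale (prior count 2). A copy of the main edgeR steps was tested on simulated counts, and the other tests and fits were not. Detection limits cover counting error only, and p-values measure the spread between the mice of a genotype.

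The members and lists were chosen with earlier results of these data known. Named were all 10 members, up to 4 genes past the threshold per wider list and direction, up to 3 abundant genes that did not pass, the 3 fat expansion genes and the 5 genes most like Mest. Neighbouring genes of the members (Copg2, Blcap, Peg10, Dlk1, Airn, Ppp1r9a), Commd1 beside Zrsr1, and Acta1 were named after their values were seen. The same holds for Myh4, Tnnc2, Dnmt1, Tspan32, Atp10a and Mirg.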

Additional observations from a re-analysis of the deposited data

Results flagged for a closer look

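In 20 sets of 4 libraries (10 members in 2 genotypes), the highest or lowest library was compared with the others by Dixon's criterion at the 95% level, which chance passes about 1 time in 20 sets. Library 3 of WT stood apart in Plagl1, at 54.86 CPM against 21.1 to 26.74 CPM in the other WT libraries. Library 1 of db/db stood apart in Meg3, at 83.33 CPM against 43.9 to 50.53 CPM in the other db/db libraries, and it also held the highest summed level of skeletal muscle markers. Igf2 was at 0.4245 CPM in WT library 4, which is 1 count, and at 0 in the other WT libraries.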

How the results depend on the processing

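Over the tested members, 71 of 72 values without one library and 84 of 87 values in the other alternatives kept their direction and their side of the threshold, and 0 were reversed. The exceptions were Grb10, which passed without WT library 3, and H19, Sgce and Meg3, which did not pass with the skeletal muscle covariate. With that covariate, 3 members were called (6 without it), 607 genes in all (2568 without it), 0 of the maternal list and 0 imprint maintenance genes, and 73.5% of all calls were higher in db/db, against 54.1% to 60.2% in the other alternatives. Leaving out 1 library gave 0 to 2 imprint maintenance genes, with 2 only without db/db library 4, and without WT library 3 the 1 call was Trim28, as lower, in place of Dnmt3a. With at least 10 counts required in every sample, 4 members were called, since Mest, H19 and Grb10 were then not tested, and the fat expansion genes could not be tested. Same-numbered libraries did not deviate together over all genes (correlations of 0.04, 0.05, -0.08 and -0.02). These values give no sign of pairing but cannot exclude it for some genes. With a replicate block 6 members and 2557 genes were called. The block left Slc22a3 (adjusted p = 0.0509) and Ube3a (0.0543) above the threshold. Scalings moved the median log2 fold change of all genes by less than 0.1. Untested for too few counts were 16 paternal and 13 maternal genes, of which 6 and 4 had 0 counts in all libraries; the cause was not tested.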
